A study of Rattus norvegicus with 65 samples.

Results

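The 47 genes of the rat major histocompatibility complex (MHC) and its presentation machinery were followed across hypothalami of rats after Roux-en-Y gastric bypass (RYGB), food restriction or gut hormone treatment. The members were all rows of the deposited count table whose symbol begins with RT1-, the name of the rat MHC, together with B2m, Cd74, Tap1, Tap2, Tapbp and Ciita, which makes 47 of 38513 genes. They comprised 31 RT1 class I genes, 10 RT1 class II genes, 4 class I partners (B2m, Tap1, Tap2 and Tapbp) and 2 class II partners (Cd74 and Ciita). Of these, 40 passed the filter on low counts and were tested, namely 25 class I genes, 9 class II genes and all 6 partners. The other 7 (RT1-M2, RT1-M4, RT1-M5, RT1-M1-5, RT1-M10-1, RT1-T18 and RT1-Ha) were at 0 in 25 to 61 of the 65 libraries and are not described further.

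The 65 libraries came from 1 hypothalamus each of male Wistar rats, an outbred strain. The animals were 9 to 10 weeks old at the start and, as the study describes it, first ate a high-fat diet for 6 weeks. They then underwent RYGB (14 animals, labelled Bypass), a sham operation (11), or food restriction that matched their body weight to RYGB animals (BWM, 7). The paper's abstract lists BWM as sham combined with body weight matching. Others received saline (8), liraglutide, an agonist of the GLP-1 receptor, at 0.4 mg/kg/day under the skin (5), PYY3-36, a gut peptide, at 0.1 mg/kg/day by osmotic minipump (4, after 1 animal was excluded), or both agents (PYY_Lira, 10). The labels call a further 6 animals only Lean, without an age or diet of their own. The paper gives a body weight for a low-fat-diet-only group, which it counts as similar to the other groups. It does not say whether these are the Lean animals, so their diet is not known here. Apart from BWM animals, the treated and control groups chose freely between high- and low-fat diets, and hypothalami were removed 4 weeks into the intervention, following a fast of 10 h. The experiments ran in 2 periods, batches A and B. RYGB (11 and 3), sham (5 and 6), saline (3 and 5) and PYY3-36 + liraglutide (5 and 5) were in both, BWM and lean animals only in A, and liraglutide and PYY3-36 animals only in B. Whole hypothalami were sequenced, so fewer cells of a type and less RNA per cell cannot be told apart.

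MHC class I molecules sit on nearly all nucleated cells and show them peptides from inside the cell. They need B2m as their light chain, the Tap1 and Tap2 transporter to carry peptides into the endoplasmic reticulum, and Tapbp (tapasin) to load them. Class II molecules are mostly made by professional antigen-presenting cells and display peptides from engulfed material. Their alpha and beta chains (RT1-Ba with RT1-Bb, RT1-Da with RT1-Db1) travel with Cd74, the invariant chain, and RT1-DMa and RT1-DMb exchange Cd74 fragments for peptides. Ciita is the transcriptional co-activator of class II genes. In the healthy brain parenchyma both classes are low, and class II is best known from macrophages of the meninges and perivascular spaces and from activated microglia.

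All RT1 genes but RT1-CE13, on an unplaced scaffold, lie on chromosome 20 of the Rnor_6.0 build, from RT1-CE10 (129192 to 157689) to RT1-A1 (5414463 to 5418012). Tap1, Tap2 and Tapbp (5468056 to 5476007) are on the same chromosome. B2m is on chromosome 3 (114087287 to 114093311), Ciita on chromosome 10 (5212621 to 5260641) and Cd74 on chromosome 18 (56071420 to 56080851). The class II genes stand together between RT1-Ha (from 3875478) and RT1-Da (to 4132616), with Tap1 (3979302 to 3989669) and Tap2 (3995544 to 4009587) between RT1-DMb and RT1-DOb. RT1 class I genes are close copies of each other, and the study divided a read that mapped to several genes among them. Values that were not whole numbers made up 86.59% of the nonzero values of RT1 class I genes, 37.76% for RT1 class II genes and 30.26% for all genes. A class I value is thus in part a share of reads from near-identical copies. Of the members, 9 (RT1-A1, RT1-A2, RT1-CE2, RT1-CE3, RT1-CE4, RT1-CE5, RT1-M6-1, RT1-T24-1 and RT1-T24-4) had a fractional value in all 65 libraries, whereas Cd74, Ciita, RT1-Da and RT1-DOb had none.

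Promoter sequences show the elements that class I and class II genes share within each class. RefSeq promoters of the GRCr8 build, running from 250 bases before to 50 after the transcription start, were at hand for 40 of the 47 members. In the class II stretches below, capitals mark ATTGG, the reverse of a CCAAT box, and where present GCAACNGATG, which resembles the X box of class II promoters.
RT1-Da, chr20:4515316-4515380, plus strand: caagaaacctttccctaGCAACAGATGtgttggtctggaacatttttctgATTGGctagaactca
RT1-Db1, chr20:4560228-4560292, minus strand: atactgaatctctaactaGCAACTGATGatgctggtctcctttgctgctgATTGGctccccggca
RT1-Bb, chr20:4604165-4604229, minus strand: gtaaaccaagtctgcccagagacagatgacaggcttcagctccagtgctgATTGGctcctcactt
RT1-Ba, chr20:4576964-4577028, plus strand: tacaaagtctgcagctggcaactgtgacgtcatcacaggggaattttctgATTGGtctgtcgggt
RT1-DMa, chr20:4712385-4712449, minus strand: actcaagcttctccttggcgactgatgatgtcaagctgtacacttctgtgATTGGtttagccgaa
Searched on both strands, ATTGG was in all 9 class II promoters at hand, in 17 of 26 class I promoters, in those of B2m and Cd74 and in 37.5% of all 33469 promoters. GCAACNGATG was in 4 of the 9 (RT1-Da, RT1-Db1, RT1-Db2 and RT1-DOb) and in 0.14% of all promoters, and 20 to 23 bases separated it from ATTGG. RT1-DMa is printed because it shares ATTGG with RT1-Da while its expression, given further on, did not follow that of RT1-Da.

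In class I promoters, capitals mark GGGGATTCCCC, the letters of an NF-kappaB site, and GTTTCACTTC, which resembles an interferon-stimulated response element.
RT1-A2, chr20:4872688-4872735, plus strand: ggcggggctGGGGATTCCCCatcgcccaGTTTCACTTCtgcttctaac
RT1-A1, chr20:4907075-4907122, plus strand: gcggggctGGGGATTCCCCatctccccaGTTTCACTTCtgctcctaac
RT1-CE10, chr20:3385135-3385182, minus strand: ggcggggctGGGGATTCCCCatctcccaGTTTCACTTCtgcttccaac
RT1-CE5, chr20:3484218-3484265, minus strand: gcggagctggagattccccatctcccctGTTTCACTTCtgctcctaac
GTTTCACTTC was in 7 of 26 class I promoters and 0.134% of all, and GGGGATTCCCC in 5 of 26 and 0.0627% of all. The class I partners carried a different spacing, GAAANNGAAA, found in all 4 of their promoters, in 3 of 26 class I promoters (RT1-S2, RT1-N3 and RT1-S3) and in 3.92% of all, with capitals again marking it.
B2m, chr3:129549165-129549204, plus strand: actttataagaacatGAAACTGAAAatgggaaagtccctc
Tap1, chr20:4668640-4668679, minus strand: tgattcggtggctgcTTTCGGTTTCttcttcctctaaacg
Tap2, chr20:4652313-4652352, minus strand: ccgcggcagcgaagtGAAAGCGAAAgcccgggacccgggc
Tapbp, chr20:4967879-4967918, minus strand: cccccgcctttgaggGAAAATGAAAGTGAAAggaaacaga
All motifs were spelled after these sequences had been looked at, and a match of letters is not a bound site.

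Library totals ranged from 20041010 to 36539941 counts with a median of 27379945. The marker genes of the labelled tissue varied widely. The summed counts scaled to the library total (CPM) of 14 hypothalamic genes, among them Agrp, Pomc, Oxt and Avp, were under 250 in 12 libraries and between 460 and 8527 in the other 53. The 12 were BWM 1, lean 2 and 5, liraglutide 3 and 4, PYY3-36 + liraglutide 8, PYY3-36 2, saline 3 and 4, and sham 2, 6 and 10. The summed CPM of 8 meningeal fibroblast genes, such as Dcn and Col1a1, ran from 69.1 to 3185 and was over 2000 only in RYGB 3 (3185) and BWM 7 (2859). BWM 5 held 76770 CPM of 8 pituitary hormone and regulator genes, against a median of 11 over all libraries. Where leaving these libraries out changed a call, the value without them is given.

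Levels differed by orders of magnitude between members. Values are normalized counts, that is, counts divided by the library's size factor, and genes are compared with each other only per kilobase of exon. Per kilobase, mean levels over the 65 animals were 7078 for B2m, 1125 for RT1-A2, 787.3 for Cd74, 642.2 for RT1-A1, 508.2 for RT1-S3, 426.4 for RT1-CE5 and 407.0 for Tapbp. RT1-CE10 (333.8) and RT1-M3-1 (315.8) followed, then RT1-DMa (292.9) and RT1-Da (277.8), and Tap1 (117.5) and Tap2 (113.0) were lower. Per gene, B2m ran from 7352 to 22800 normalized counts. The summed RT1 class I level ranged 5.0-fold over the 65 animals, from 4046 to 20230, and the summed RT1 class II level 17.03-fold, from 553.4 to 9427. Ciita was thinly counted, with a mean of 13.2 normalized counts and 0 counts in 3 libraries.

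The chains of the classical class II molecules and Cd74 varied widely between animals. Cd74 ran from 94.0 in lean 5 to 7762 in BWM 7, an 82.6-fold range, with a median of 786.6 and a mean of 1142. RT1-Da ranged 99.4-fold (24.0 in RYGB 5 to 2385 in BWM 7), RT1-Db1 90.9-fold (22.5 to 2044), RT1-Bb 101.3-fold (20.8 to 2110) and RT1-Ba 79.3-fold (22.4 to 1774). The ranges of RT1-DMa and RT1-DMb were much narrower, 3.26-fold (202 to 659) and 3.66-fold (117 to 427). The spread within groups and batches, expressed as edgeR's biological coefficient of variation, was 0.79 for Cd74, which was 3.23 times the value of genes of similar abundance and in the 99.2 percentile of that ratio among the 21871 genes tested. It was 0.84 for RT1-Da, 0.83 for RT1-Ba, 0.82 for RT1-Bb and 0.75 for RT1-Db1, but 0.21 for RT1-DMa and 0.26 for RT1-DMb. The median was 0.82 over the 9 class II genes, 0.40 over the 25 class I genes and 0.26 over all genes tested (0.41 over the 40 members). The highest coefficients belonged to rarely counted members: RT1-M6-2 (1.51; 0 counts in 5 libraries), RT1-DOa, the alpha chain of the inhibitor of RT1-DM (1.10; 0 counts in 15 libraries), RT1-M1-4 (1.03; 0 counts in 5) and RT1-Db2 (0.85, with a 129.4-fold range). RT1-M3-1 had the lowest coefficient of any member, 0.19.

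**Figure D1:**
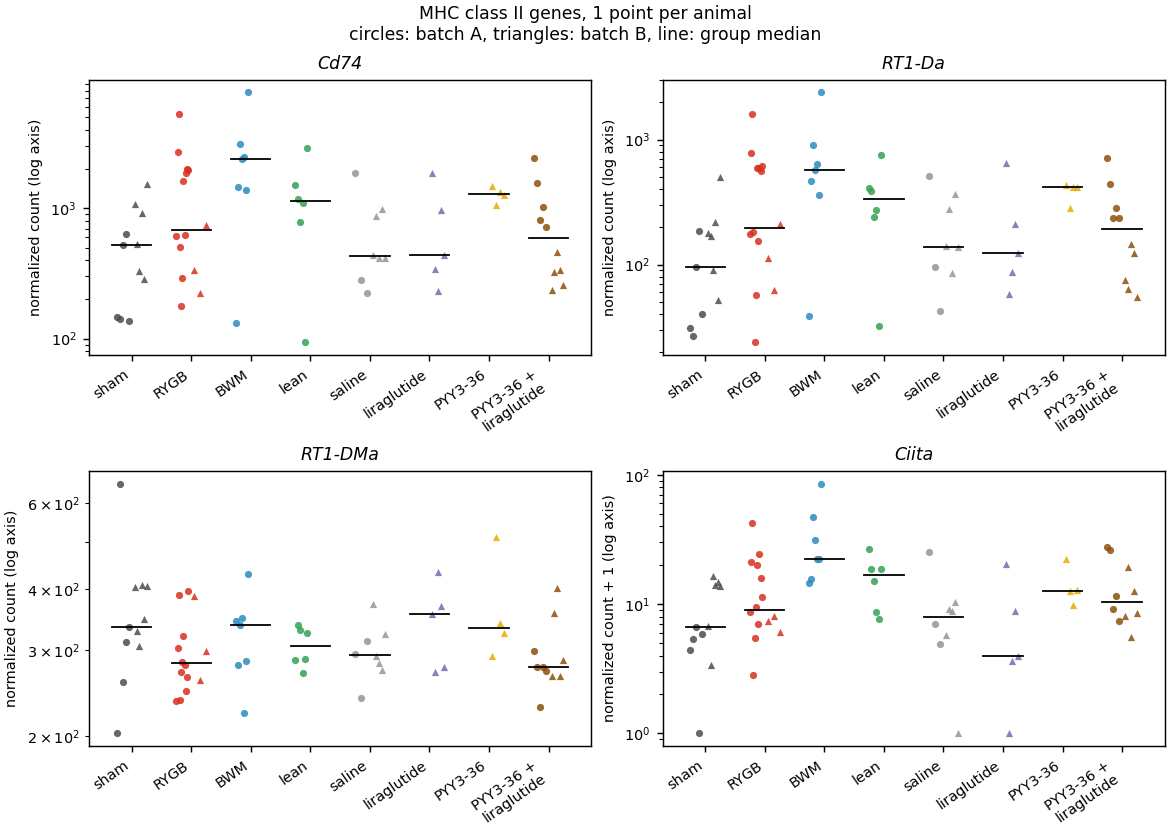
Normalized counts (log axes; Ciita with 1 added) of Cd74, RT1-Da, RT1-DMa and Ciita in each of the 65 animals, by group, with circles for batch A, triangles for batch B and a line at the group median. Over all animals Cd74 spans 82.6-fold, most widely in BWM animals, and RT1-Da 99.4-fold, most widely in BWM and RYGB animals. Both span least in PYY3-36 animals (Cd74 1063 to 1496), whereas RT1-DMa stays between 202 and 659.

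By group, Cd74 was highest in BWM animals, where the lowest, median and highest values were 132.6, 2377 and 7762. The same 3 values were 1063, 1296 and 1496 in PYY3-36 animals, 94.0, 1135 and 2916 in lean, 176.9, 685.5 and 5307 in RYGB, and 238.0, 589.4 and 2449 in PYY3-36 + liraglutide animals. They were 136.6, 520.1 and 1547 in sham, 231.1, 438.1 and 1869 in liraglutide and 224.2, 427.2 and 1870 in saline animals. Each neighbouring pair in this order overlapped, and BWM animals spanned almost the whole range of the series. In batch A, 4 of the 5 sham animals (136.6, 142.1, 147.4 and 520.1; the fifth had 630.9) were lower than 8 of the 11 RYGB animals, whose lowest, median and highest values were 176.9, 1610 and 5307. In batch B the order was the other way, with RYGB animals at 225.6, 338.8 and 742.3 and the 6 sham animals at 287.7, 733.1 and 1547 (lowest, median and highest).

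The classical class II genes and Cd74 moved together from animal to animal. After group and batch means were removed from log2(CPM + 1), the 10 pairs among Cd74, RT1-Ba, RT1-Bb, RT1-Da and RT1-Db1 had Pearson correlations of 0.91 to 0.98 (median 0.97) over the 65 animals. Within batch A alone they were 0.93 to 0.99 and within batch B 0.82 to 0.96. The ratio of Cd74 to RT1-Da stayed between 2.65 and 7.37, a 2.78-fold range, while Cd74 against RT1-DMa varied 83.6-fold. With RT1-DMa the same 5 genes correlated by -0.04 to 0.13, with RT1-DMb by 0.49 to 0.61, with Ciita by 0.66 to 0.70 and with B2m by 0.70 to 0.74. RT1-DMa and RT1-DMb correlated by 0.52 with each other. The 5 genes were set together after their values were seen. Points of one correlation share libraries and their depth, and values of class I genes also share reads, so these correlations are descriptions without a test.

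Among class I genes, RT1-A1, RT1-A2, RT1-CE3, RT1-CE4, RT1-CE5 and RT1-CE10 formed another block, with 15 pairs at 0.79 to 0.93 (median 0.89). Their assembly, too, followed a look at the values. They had correlations of 0.76 to 0.84 with Tap1, 0.57 to 0.74 with B2m and 0.59 to 0.79 with the 5 class II genes. Negative values also occurred: RT1-M1-2 and Tapbp correlated by -0.60, and RT1-M1-4 and RT1-T24-3 by -0.61, the lowest of all 780 pairs. RT1-M6-1 and RT1-M6-2 correlated by 0.80, which fell to 0.54 without the 2 most distant animals.

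**Figure D2:**
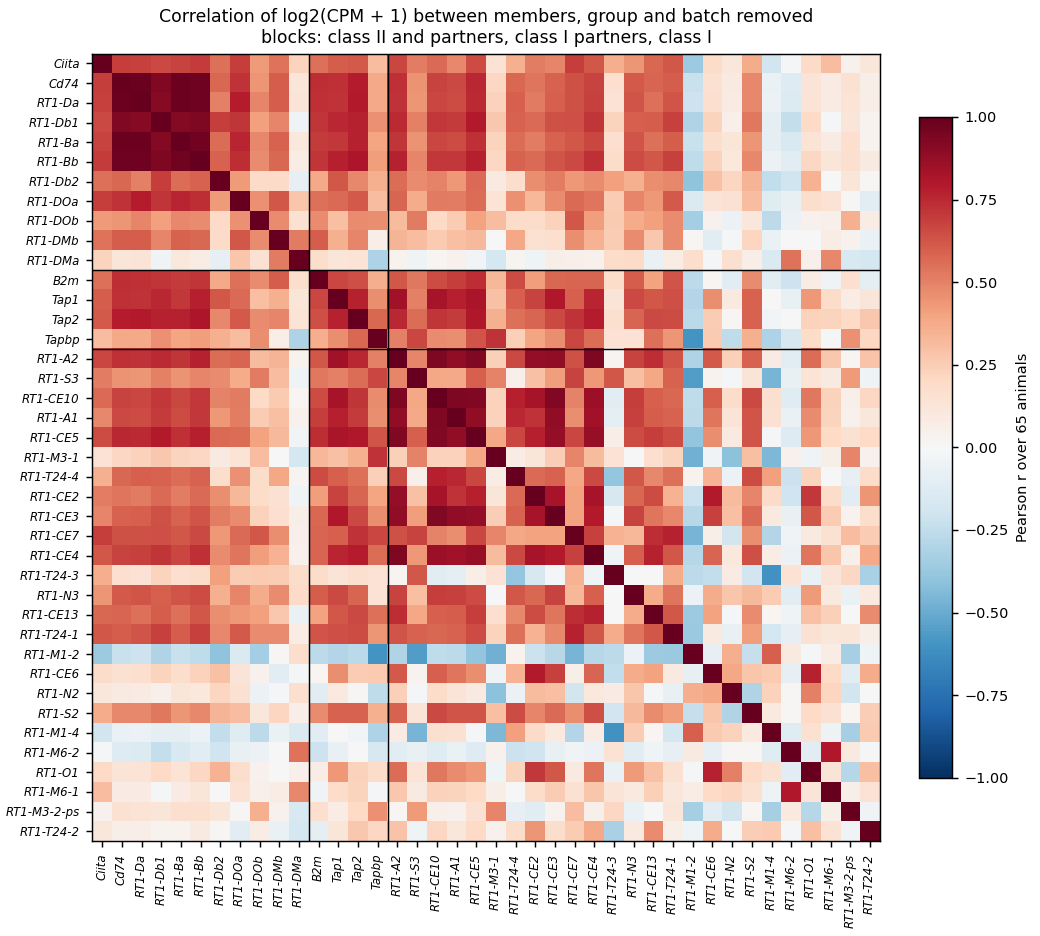
Pearson correlation (colour, from -1 to 1) of log2(CPM + 1) over 65 animals for every pair of the 40 tested members, group and batch means removed, with lines between class II genes with their partners, class I partners and class I genes. Cd74, RT1-Da, RT1-Db1, RT1-Ba and RT1-Bb make a red square of 0.91 to 0.98, and the column of RT1-DMa is pale against them.

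The genes outside the members that were most like Cd74 by the same correlation were Mpzl2 (0.90), NEWGENE_621351 (0.90), Anxa2 (0.90), Col1a2 (0.89) and Ifitm1 (0.89), of which Col1a2 encodes a chain of fibrillar collagen and was also on the meningeal list. For B2m they were LOC100910973 (0.89), Ctsh (0.88), Rhoc (0.88), Cyba (0.87) and LOC100911730 (0.85). Ctsh encodes cathepsin H, a lysosomal protease, and Cyba a subunit of the phagocyte NADPH oxidase.

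Marker levels of other cell types moved with class II. For correlations, each list was scored as the mean log2(CPM + 1) of its genes that passed the filter. The score of the 8 meningeal genes correlated with Cd74 by 0.89 and with RT1-Da by 0.92 over 65 animals (group and batch removed). Its correlation was 0.68 with B2m, 0.63 with RT1-A2 and 0.13 with RT1-DMa. For Cd74 the correlation was 0.91 within batch A, 0.88 within batch B and 0.88 without the 2 most distant animals. The 8 detected genes of border and perivascular macrophages, such as Mrc1 and Cd163, correlated with Cd74 by 0.84, and their summed CPM ran from 4.18 to 69.2. The 15 microglial genes summed to 366 to 858 CPM, and the 14 of them that passed the filter correlated with Cd74 by 0.37 and with RT1-DMa by 0.53. The 23 interferon-response genes correlated with Cd74 by 0.76, but by 0.89 in batch A and 0.36 in batch B, and by 0.74 with RT1-A2. B cell markers were nearly absent, with all 6 under 1 CPM in every library. Median meningeal sums by group were 145.8 in sham, 157.3 in liraglutide, 245.8 in saline, 274.8 in PYY3-36 + liraglutide, 336.4 in RYGB, 672.1 in lean, 802.3 in PYY3-36 and 1146 in BWM animals, and those of the macrophage genes ran from 8.63 in sham to 26.3 in BWM. The share of meningeal or macrophage RNA in the class II level was not tested beyond the fits with a meningeal covariate given below. That covariate was the mean log2(CPM + 1) of 9 meningeal genes, the 8 and Ptgds.

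**Figure D3:**
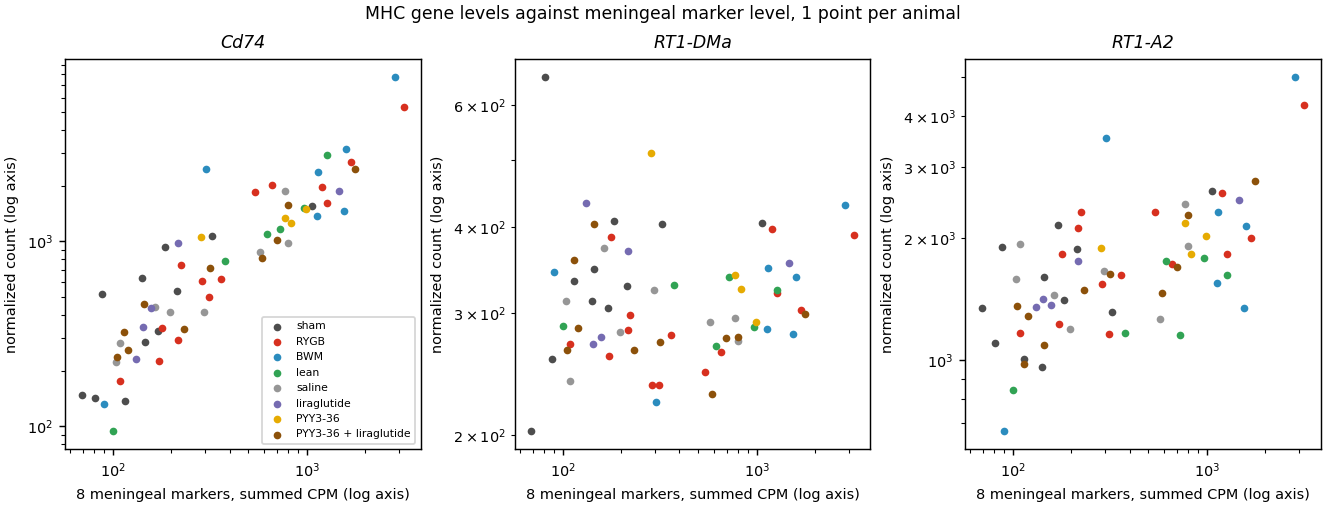
Normalized counts of Cd74, RT1-DMa and RT1-A2 against the summed CPM of 8 meningeal marker genes (both axes log), 1 point per animal, coloured by group. Cd74 rises along the whole range from 69.1 to 3185 CPM, RT1-DMa does not, and BWM 5, at 302.1 CPM, lies above the points of similar meningeal level in the Cd74 and RT1-A2 panels.

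For RYGB against sham, the comparison of the operation with its surgical control, 2 of the 40 tested members were called in edgeR's quasi-likelihood test with group and batch at adjusted p under 0.05, 1 higher and 1 lower. Over all genes tested 13% were called (6.52% higher and 6.53% lower), so the members' share was below the background. At unadjusted p under 0.05 there were 6 of 40, against 30% of all genes. RT1-CE7, a class I gene (chromosome 20, 4695765 to 4698712), had lowest, median and highest values of 91.2, 132.1 and 247.8 in sham and 127.9, 251.8 and 901.1 in RYGB animals. The groups overlapped, with 7 of the 14 RYGB animals above every sham animal. The difference was 0.79 on the log2 scale (SE 0.26, means 308.4 and 150.9, adjusted p = 0.0369). Within batch A it was 1.25 (adjusted p = 0.0535) and within batch B 0.60 (adjusted p = 0.28). The call was lost when any one of RYGB 3, 9, 12 and 14 or sham 1, 2, 3, 4, 5 and 6 was left out (0.62 to 0.78, adjusted p 0.0514 to 0.086), as well as without RYGB 3 and BWM 7 (0.62, adjusted p = 0.0685, 12.2% of all genes called) and with the meningeal marker level as a covariate (0.43, adjusted p = 0.185). Against saline instead of sham animals, RT1-CE7 stood at 0.31 (adjusted p = 1.0).

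RT1-M6-2, a class I gene of the RT1-M series (chromosome 20, 2075796 to 2079183), was called lower after RYGB, which rested on 1 sham animal. Sham 2 had 618.7 normalized counts, whereas the other 10 sham animals had 0 to 3.94 and the RYGB animals 0 to 25.4 (median 4.05). The log2 difference was -2.91 (SE 0.88, adjusted p = 0.0231), and without sham replicate 2 it turned to 1.38 (adjusted p = 0.293). Sham 2 also held the highest RT1-M6-1 (108.9) and RT1-DMa (658.8) of the series and was among the 12 libraries low in hypothalamic markers (70.7 CPM). PYY3-36 2, another of these 12, had the second highest RT1-M6-2 (60.4) and RT1-DMa (511.1). Without these 12 libraries no member was called in RYGB against sham (1 at unadjusted p under 0.05), and 5.36% of all genes were. RT1-CE7 then stood at 0.70 (adjusted p = 0.109).

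**Figure D4:**
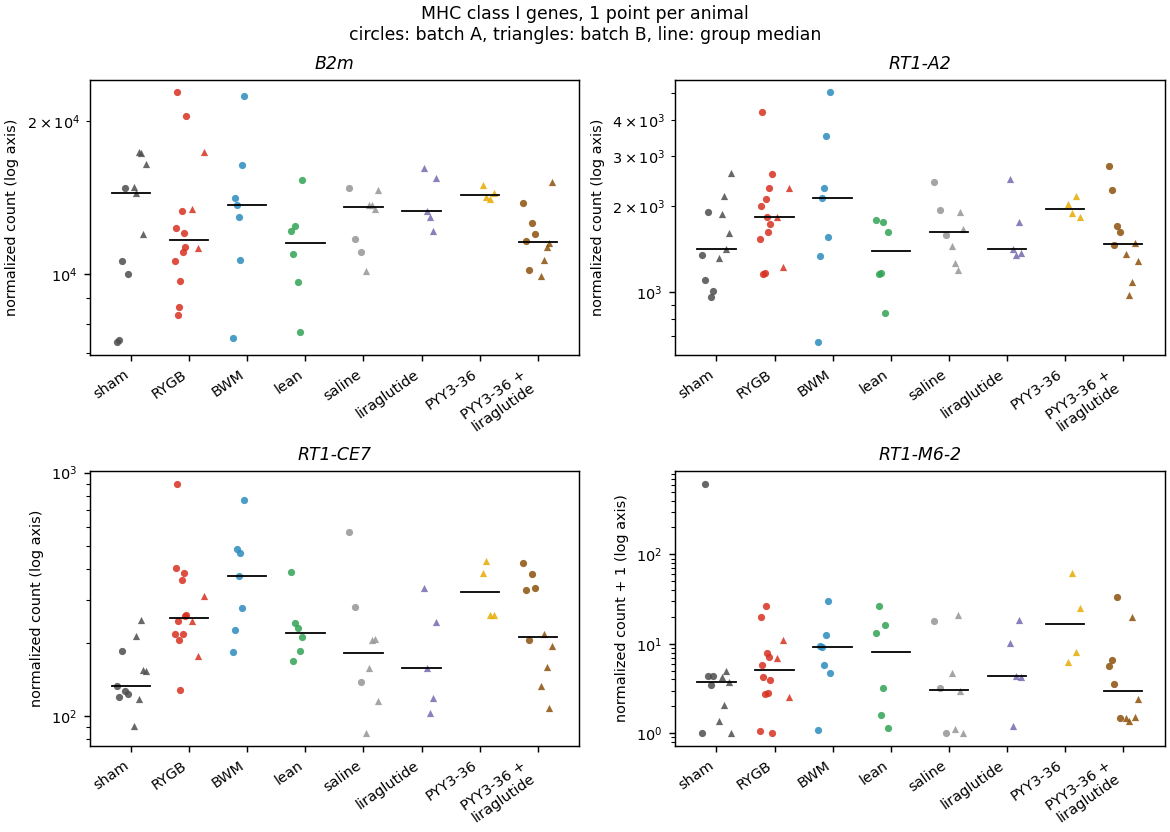
Normalized counts (log axes; RT1-M6-2 with 1 added) of B2m, RT1-A2, RT1-CE7 and RT1-M6-2 in each of the 65 animals, by group, with circles for batch A, triangles for batch B and a line at the group median. The single sham point at 618.7 stands far above all others for RT1-M6-2, and RYGB and sham overlap for RT1-CE7.

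The abundant class I genes and the class I partners were not called between RYGB and sham. B2m had medians of 11680 and 14480 and a fitted log2 difference of 0.08 (95% interval -0.20 to 0.36). These medians pool both batches, whereas the fit has a term for batch. Without that term B2m stood at -0.013. RT1-A2 medians were 1831 and 1408, with fitted log2 differences of 0.14 to 0.34 over single libraries left out. The 4 partners were all positive with a median log2 difference of 0.13, against -0.02 for all genes tested, and Tap2 stood at 0.12 (interval -0.20 to 0.44). Over the 25 class I genes 14 were positive and the median was 0.06.

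In class II, no gene was called after RYGB. Cd74 was 0.74 higher on the log2 scale (95% interval -0.45 to 1.92, means 1355 and 571.0, adjusted p = 0.417), and the median over Cd74, RT1-Ba, RT1-Bb, RT1-Da and RT1-Db1 was 0.81 with all 5 positive. Without RYGB 3, Cd74 stood at 0.45, and without RYGB 3 and BWM 7 the median of the 5 was 0.52. The batches went opposite ways. Within batch A the median of these 5 was 2.34, with 4 at unadjusted p under 0.05 and none called (Cd74 2.34, adjusted p = 0.0841, and RT1-Da 2.67, adjusted p = 0.0703), where 2.43% of all genes were called. Within batch B it was -0.84 with none positive (Cd74 -0.84, adjusted p = 0.368), where 11.8% of all genes were called. The test of that difference between batches gave -3.16 for Cd74 (SE 1.08, unadjusted p = 0.004787, adjusted p = 0.2285) and -3.27 for RT1-Da (adjusted p = 0.258). All 5 had unadjusted p under 0.05, but no member passed adjustment, nor did any other gene (0% called, 10.4% at unadjusted p under 0.05). The 9 meningeal genes behaved alike in the same test, with all 9 at unadjusted p under 0.05 and a median of -4.35. With the meningeal marker level as a covariate, Cd74 was -0.30 (adjusted p = 0.488) and the median of the 5 was -0.28, and RT1-Db1 was called lower (-0.87, SE 0.30, adjusted p = 0.0459) where 13.1% of all genes were called. RT1-DMa fell outside this pattern: its medians were 281.7 in RYGB and 334.2 in sham, and the log2 difference was -0.25 (unadjusted p = 0.04268, adjusted p = 0.1504), or -0.07 without sham replicate 2.

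For BWM against sham, food restriction without the bypass, no member was called, where 0.320% of all genes were called. Of the 40, 12 had unadjusted p under 0.05 (12.3% of all genes did). Of these 12, the 5 largest positive differences were those of Ciita, RT1-Bb, RT1-Da, RT1-Ba and Cd74. Ciita had lowest, median and highest values of 13.6, 21.5 and 84.5 in BWM and 0, 5.59 and 15.5 in sham animals, so that 5 of the 7 BWM animals lay above every sham animal, with a log2 difference of 1.96 (SE 0.59, adjusted p = 0.114). RT1-Da had 39.1, 572.7 and 2385 in BWM and 26.9, 95.1 and 501.0 in sham animals, with a log2 difference of 1.89 (95% interval 0.41 to 3.37, adjusted p = 0.2596). In 6 of the 7 BWM animals it was above every sham animal but sham 11. The log2 difference was 1.92 for RT1-Bb, 1.74 for RT1-Ba and 1.65 for Cd74 (adjusted p = 0.2979), and the median over the group of 5 was 1.74 against -0.001 for all genes tested. Markers of other tissues also differed in this comparison. Called higher were 5 of 8 pituitary genes (median 5.50), 2 of 9 choroid plexus genes (median 1.33) and 1 of 7 endothelial genes (median 0.59). Medians were 1.52 over 9 meningeal and 1.40 over 8 macrophage genes, with none called. The summed pituitary genes stood at 76770 CPM in BWM 5 and at 3.6 to 1134 in the other BWM animals. Group medians of that sum were 16.45 CPM in BWM and 10.87 in sham animals. In RYGB against sham, where 6.52% of all genes were called higher, so were 2 of 9 choroid plexus genes (median 1.35). The same held for 1 of 8 macrophage genes (median 1.01), 1 of 7 endothelial genes (median 0.24) and 1 of 14 microglial genes (median -0.07). The part of pituitary and choroid plexus RNA in these results was not tested. BWM 1 was the low extreme (Cd74 132.6) and BWM 7 the high (7762). Without BWM replicate 7, Cd74 stood at 1.12 and Ciita at 1.55.

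Calls in BWM against sham depended on the fit. DESeq2 called Ciita (adjusted p = 0.0344). Within batch A, where BWM animals and 5 sham animals can be set against each other, Ciita (3.14, SE 0.69, adjusted p = 0.0325), RT1-CE7 (1.53, adjusted p = 0.0405), RT1-Da (3.33, adjusted p = 0.0487) and RT1-Bb (3.24, adjusted p = 0.0494) were called, 4 of 40 beside 1.59% of all genes. With no batch term, where BWM animals of batch A were set against sham animals of both batches, 9 members were called. Leaving out BWM replicate 1 brought in RT1-CE7 (1.17, adjusted p = 0.0397) and Tap2 (0.74, adjusted p = 0.028). For DESeq2, the fit with no batch term and the fit without BWM 1, the share of all genes called is not given. Their calls are therefore not set against a background. With the meningeal marker level as a covariate, no member was called (0.219% of all genes), Cd74 was at 0.30 and Ciita at 1.06 (adjusted p = 0.471). Without RYGB 3 and BWM 7, the 2 libraries highest in summed meningeal CPM, no member was called (0.188% of all genes). The median of the 5 class II genes was then 1.30.

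Differences in class I were smaller in BWM animals: the median log2 difference of the 25 class I genes was 0.27 with 20 positive, and RT1-CE7 (182.3, 374.1 and 772.9, lowest, median and highest) stood at 1.04 (adjusted p = 0.1147). Tap2, with 166.9, 418.2 and 670.1 in BWM and 173.7, 242.2 and 295.6 in sham animals, stood at 0.60 (SE 0.20, adjusted p = 0.1563). BWM 5, the library high in pituitary genes, had the highest Tapbp (1612) and RT1-M3-1 (830.7) of the series. Direct comparison of RYGB with BWM gave 0 called members beside 0.343% of all genes, and 5 of 40 at unadjusted p under 0.05 (12.6% of all genes). All 9 class II genes and both class II partners were lower in RYGB, with Ciita at -1.34 (means 12.6 and 33.1, adjusted p = 0.2607), Cd74 at -0.91 and Tap2 at -0.48 (adjusted p = 0.276). RYGB against sham, BWM against sham and lean against sham share their sham animals, and BWM animals entered the first of these comparisons only through the shared spread.

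**Figure D5:**
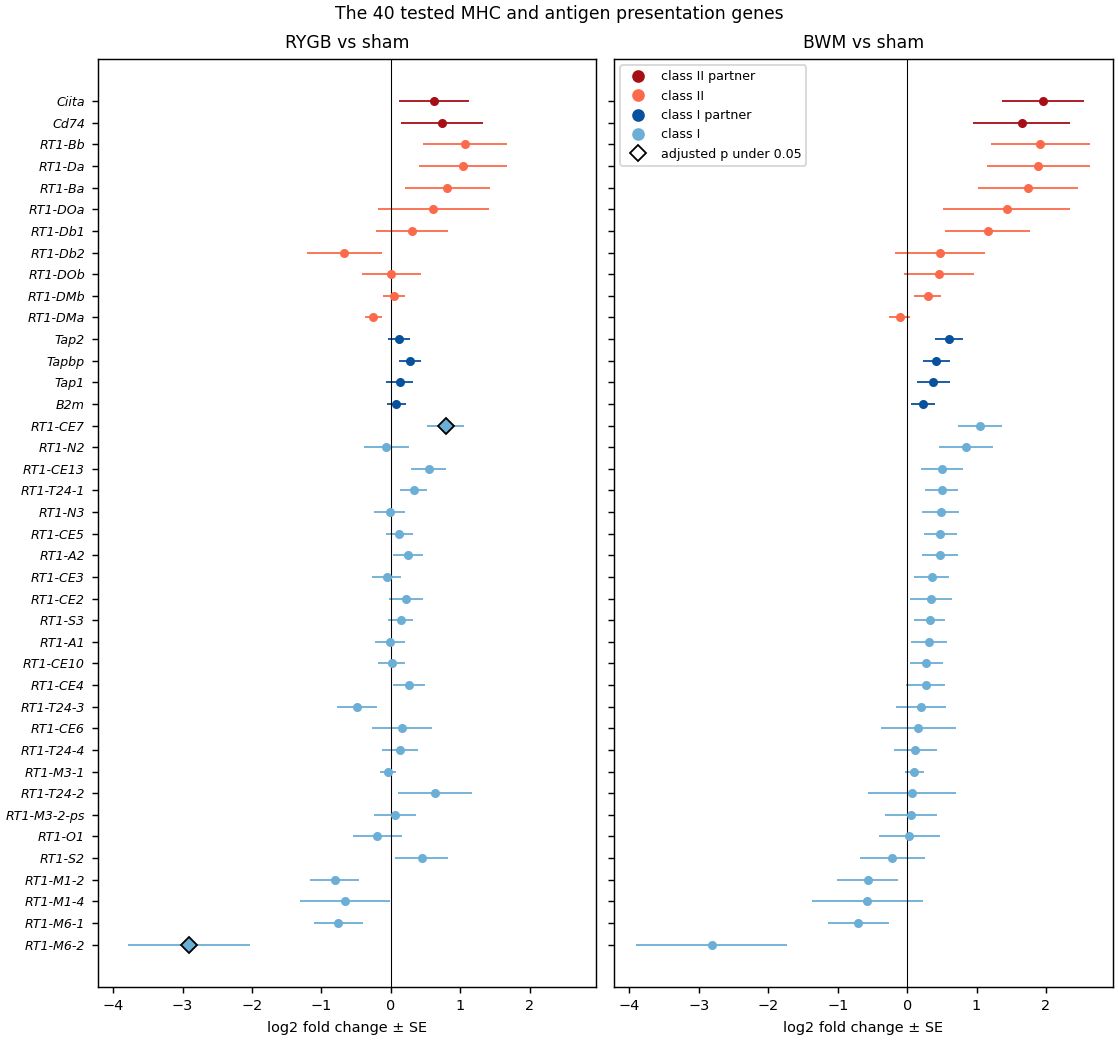
log2 fold changes with their standard errors for the 40 tested members, RYGB against sham on the left and BWM against sham on the right, coloured by class, with diamonds for adjusted p under 0.05. RT1-CE7 and RT1-M6-2 carry the only diamonds, on the left, and in the right panel Ciita, RT1-Bb, RT1-Da, RT1-Ba and Cd74 lie furthest to the right, with wide errors.

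In lean against sham animals, 0 of 40 members were called by edgeR (0% of all genes) and 2 had unadjusted p under 0.05 (12.2% of all genes). RT1-A1 was the lowest among the abundant class I genes, with 360.2, 666.6 and 927.7 in lean and 724.2, 1004 and 1788 in sham animals and a log2 difference of -0.70 (unadjusted p = 0.01623, adjusted p = 0.3203). Of the 25 class I genes, 19 were negative, with a median of -0.27. Within batch A, which holds all lean animals, this did not hold: 13 of 25 were positive with a median of 0.04, and RT1-A1 stood at -0.48 (adjusted p = 0.557). There the median of the 5 class II genes was 1.97, with 4 at unadjusted p under 0.05 and none called (0% of all genes). With the meningeal marker level as a covariate RT1-A1 was called lower, beside 0.832% of all genes.

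The hormone treatments moved no member past the threshold. In PYY3-36 against saline, 0 of 40 were called (0% of all genes) and 3 had unadjusted p under 0.05 (7.54% of all genes). Cd74 was 1063, 1261, 1332 and 1496 in the 4 PYY3-36 animals. In 7 of the 8 saline animals it was below the lowest of these, and in the other it was 1870. The log2 difference was 1.164 (95% interval -0.30 to 2.63, adjusted p = 0.6727), and all 9 class II genes were positive with a median of 1.11. RT1-CE7 was 258.5, 259.7, 385.8 and 432.8 in PYY3-36 animals, with a log2 difference of 0.87 (adjusted p = 0.6525), and the lowest, median and highest values in saline animals were 84.7, 181.0 and 572.1. With the meningeal covariate the median of the 5 class II genes was 0.21.

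In liraglutide against saline, 0 of 40 were called (0% of all genes) and none had unadjusted p under 0.05 (2.08% of all genes). Cd74 was 231.1, 343.7, 438.2, 978.9 and 1869 in the 5 liraglutide animals, a spread as wide as in saline animals, and the log2 difference was 0.42 (95% interval -0.97 to 1.82). In PYY3-36 + liraglutide against saline, 0 of 40 were called beside 0.00457% of all genes, again with none at unadjusted p under 0.05 (2.53% of all genes). Cd74 stood at -0.02 (interval -1.22 to 1.18), with the median of the 5 class II genes at 0.74 within batch A and -0.85 within batch B, and B2m at -0.09 (interval -0.41 to 0.23). In sham against saline, the 2 control groups, 0 of 40 were called beside 0.0137% of all genes, and RT1-DMa (0.28, adjusted p = 0.3768) alone had an unadjusted p under 0.05 (12.9% of all genes).

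Between the experimental periods, 6 of the 40 members were called, all lower in batch B than in A, where 40.7% of all genes were called and 21.4% were lower. All 6 belonged to class I or its partners. RT1-T24-2, a long non-coding RNA inside RT1-T24-3 on the opposite strand, had means of 2.62 in B and 9.06 in A and a log2 difference of -1.78 (SE 0.42, adjusted p = 0.0004883). The others were RT1-CE13 at -0.69 (means 66.2 and 96.7, adjusted p = 0.003385), Tap2 at -0.41 (221.2 and 314.1, adjusted p = 0.006407), RT1-M6-1 at -0.79, RT1-CE7 at -0.53 and RT1-M6-2 at -1.92 (adjusted p = 0.04968). Sham 2 weighed on the M6 pair, which without it stood at -0.28 (RT1-M6-1, adjusted p = 0.376) and -0.46 (RT1-M6-2), and the RT1-M6-2 call was lost in 40 of the 65 fits that left out 1 library. RT1-CE7 was lost without RYGB 13, PYY3-36 + liraglutide 9 or saline 1 (-0.39 to -0.49, adjusted p 0.0527 to 0.108). Without the 12 libraries low in hypothalamic markers, where 40% of all genes were called, RT1-M6-1 (-0.36, adjusted p = 0.235) and RT1-M6-2 (-0.95, adjusted p = 0.243) were lost and RT1-Db1 was called lower (-1.03, SE 0.40, adjusted p = 0.0367). With all libraries no class II gene was called, and their median was -0.63. With the meningeal marker level as a covariate, where 41.7% of all genes were called, the class II median was 0.10, RT1-CE7 was lost (-0.28, adjusted p = 0.16) and 3 members were called higher in B, namely B2m (0.35, adjusted p = 0.000384), RT1-T24-4 (0.49, adjusted p = 0.0112) and RT1-DMb (0.30, adjusted p = 0.0143), beside 5 lower. B2m had means of 13810 in B and 12290 in A (0.23, adjusted p = 0.08969), and was also called higher without RYGB 3 and BWM 7 (0.25, adjusted p = 0.0295).

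Other genes of presentation were read from lists of the pathway. After RYGB, where 13% of all genes were called, 4 of 15 genes of class I peptide supply and loading were called, with Psmb10, an inducible proteasome subunit, lower at -0.55 (adjusted p = 0.00515) and Calr, a loading chaperone, lower at -0.28 (adjusted p = 0.007895), and Tpp2 and Erap1, peptidases that trim peptides, higher at 0.96 (adjusted p = 0.01065) and 0.42 (adjusted p = 0.04687). Among the transcription factors of MHC genes reported here, Nfkb1 was higher (0.31, adjusted p = 0.006211) and Rfxank, a subunit of the complex that binds the X box, lower (-0.28, adjusted p = 0.03158). Nlrc5, the class I co-activator, was at 0.19 (adjusted p = 0.6976). Of 9 genes of class II processing, Cst3, a cathepsin inhibitor, was lower at -0.39 (adjusted p = 0.02706). None of 7 class I-like molecules and none of 23 interferon-response genes were called, with medians of 0.25 and 0.09. In BWM against sham and lean against sham none of these 5 lists held a called gene, and Nlrc5 was at 0.74 in BWM animals (adjusted p = 0.406).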

How the data were processed

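Poly-A RNA of 1 hypothalamus per animal was sequenced as single-end reads of 75 nt with a strand-specific kit. Per the study's methods and processing notes, reads were trimmed with cutadapt, aligned to Rnor_6.0 with STAR 2.7.2b and counted over exons with featureCounts 1.6.4, by strand, with a read of several positions or genes divided among them. The values the authors deposited are therefore expected counts with fractions, and they were rounded to whole numbers here. Groups follow the labels.

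Genes passing edgeR's filterByExpr (minimum count 10, minimum total 15) were tested in edgeR 4.0.16 (R 4.3.3) with its robust quasi-likelihood test, TMM scaling and terms for group and batch over all 65 libraries. P-values were two-sided, adjusted by Benjamini-Hochberg over 21871 genes and called under 0.05, and measure the spread between animals. Levels are counts divided by DESeq2 1.42.0 size factors. Correlations use log2(CPM + 1), with a pseudocount of 1, less group and batch means. The script was tested on simulated data. Alternatives were DESeq2, RLE scaling, no filter, a replicate block, no batch term, fits within a batch or over fewer groups, another control group, a fold threshold, each library left out and, chosen after seeing the data, fits without the libraries that stood apart or with the log meningeal marker level as a covariate.

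The members and gene lists were chosen with earlier results of these data known. Described with values were the 6 partners, the 6 most abundant class I and class II genes, members called in any comparison and the 6 RT1 genes of highest dispersion. Genes outside the members were given by list, of which 1 gene is not reported here, or as the 5 most correlated with B2m and with Cd74. Promoter sequences are from RefSeq (GRCr8), and their coordinates cannot be set beside those of Rnor_6.0. No pair of replicates was near-identical (lowest chi-square per degree of freedom 11.1).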

Additional observations from a re-analysis of the deposited data

Results flagged for a closer look

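Values far from the rest of their group were looked for with Dixon's criterion in groups of 4 to 10 animals, which were 156 combinations of a described gene and a group. Of these, 18 stood out, and correlated genes of 1 animal count several times. A rate of 1 in 20 would give 7.8. The criterion is made for normally distributed values, whereas untransformed counts were used and some genes were chosen for high dispersion. The 7.8 is therefore no measure of chance here. All values are normalized counts, with the nearest other animal of the group after each.

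BWM 7 was far above the other BWM animals in Cd74 (7762, next 3141), RT1-Da (2385, next 907.7) and RT1-Db1 (2044, next 779). It was also 1 of the 2 libraries highest in meningeal markers. Liraglutide 1 stood out in RT1-Da (654.6, next 211.3), RT1-Bb (652.7, next 228.3), RT1-Ba (543, next 203.4), RT1-CE5 (940.8, next 625.5) and Tap2 (362.2, next 218.6). Its summed CPM was 1459.9 for the 8 meningeal genes (group median 157.3) and 43.6 for the macrophage genes (group median 12.75). Saline 1 stood out in Cd74 (1870, next 981.7), Ciita (24.27, next 9.41), RT1-CE7 (572.1, next 279.8) and Tap2 (369.9, next 248.0). Its summed CPM was 771.7 for the 8 meningeal genes (group median 245.8, saline 7 799.3). For the macrophage genes it was 20.11 (group median 11.71, saline 7 26.73).

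Single genes stood out in other animals. They were Tap1 in PYY3-36 + liraglutide 1 (544.9, next 356.3), RT1-T24-2 in PYY3-36 + liraglutide 2 (20.41, next 10.17), RT1-CE7 in lean 1 (390.9, next 241.8), RT1-M6-2 in BWM 6 (29.28, next 11.73) and RT1-M3-1 in BWM 5 (830.7, next 549.2), the library high in pituitary genes. PYY3-36 2 was the only low value, in RT1-Da (281.5, next 417.9), and was low in hypothalamic markers.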

How the results depend on the processing

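The cause of the following changes was not tested. Counts of called members here can be set beside a share of all genes only where that share was given above. In RYGB against sham, where 2 members were called, 0 were called with the replicate block, against saline or without the 12 libraries low in hypothalamic markers, and 5 without a batch term. The count was 1 within batch A, within batch B, over the compared groups only, with a log2 change beyond 1, without the 2 libraries highest in meningeal markers and with the meningeal covariate. Within batch B the called member was neither RT1-CE7 (adjusted p = 0.28) nor RT1-M6-2 (adjusted p = 0.476) but another class I gene, lower. With the covariate it was RT1-Db1. Leaving out single libraries gave 0 to 2. The log2 difference of RT1-M6-2 was 1.597 within batch B, 1.23 without the 12 libraries and -3.18 to 1.38 over single libraries left out. Within batch B, Cd74 was -0.84, RT1-Da -0.63, RT1-A2 -0.024 and Ciita -0.76, and B2m was -0.13 there, -0.048 with the block and -0.013 with no batch term. With the covariate, B2m was -0.145, Cd74 -0.30, RT1-Da -0.097, RT1-A2 -0.03, Tap2 -0.15 and Ciita -0.071. RT1-DMa was 0.031 against saline. In BWM against sham, with 0 called by edgeR, DESeq2 called 1, the fit with no batch term 9, the fit within batch A 4, and single libraries left out 0 to 2. RT1-DMa there was 0.175 against saline, 0.082 without the 12 libraries and -0.20 to 0.077 over single libraries left out (0.077 without sham 2), and B2m was -0.11 with the covariate. The covariate called 1 member in lean against sham (RT1-A1, lower), and sham as the control 1 in PYY3-36 (RT1-CE7). Between batches, with 6 called, the block left 0, a log2 change beyond 1 left 2 (RT1-M6-2 and RT1-T24-2) and single libraries left out gave 4 to 7. The median correlation of the 5 class II genes with B2m was 0.59 with group and batch means kept.

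Replicate numbers gave no pairing: over 171 pairs of libraries with the same number in different groups the median correlation of deviations was 0.012 (-0.015 for other numbers), and 11 of 65 libraries were closest to one of their own number. The replicate block changed the 2 counts named above. In lean against sham, RYGB against BWM, the hormone comparisons, sham against saline and the differences between batches, 0 members were called in every fit that left out a library. Members counted in single digits, such as RT1-M6-2, RT1-T24-2 and Ciita, are limited by depth, and class I copies by divided reads.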

Other observations

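Genes of antigen processing outside the members also differed between the experimental periods, where 40.7% of all genes were called by edgeR. Of 15 genes of class I peptide supply and loading, 5 were higher in batch B, among them the endoplasmic reticulum chaperones Calr (log2 difference 0.29, SE 0.06), Canx (0.33, SE 0.07) and Hspa5 (0.28, SE 0.10), and 1 was lower, the peptidase Tpp2 (-0.73, SE 0.20). Of 9 genes of class II processing, 4 were higher, namely the cathepsins Ctsd (0.21, SE 0.05), Ctss (0.32, SE 0.08) and Ctsl (0.24, SE 0.09) and the cathepsin inhibitor Cst3 (0.24, SE 0.10). Among the transcription factors of MHC genes reported here, Irf2 (-0.22, SE 0.06) and Rfx5 (-0.31, SE 0.11) were lower. None of 7 class I-like molecules were called.

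Other cell type markers also varied with the members over the 65 animals, with group and batch means removed. The mean log2(CPM + 1) of 7 dendritic cell genes correlated by 0.83 with Cd74 and by 0.67 with RT1-A2. For T and NK cell genes, of which 9 of 11 passed the filter, the values were 0.68 and 0.55. Of the 11, 8 were under 1 CPM in every library. The neuronal genes ran the other way, with -0.65 for Cd74, -0.69 for B2m and -0.53 for RT1-A2. These values share libraries and depth and are given without a test.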
